A study of Zea mays with 4 samples.

Results

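The 8 genes described here are listed as genes that store or make embryo oil and globulin in maize or regulate oil synthesis. They were measured by RNA sequencing of whole developing kernels, so no value places their transcripts in the embryo. They were taken by gene ID, with no threshold on a measured value but with earlier results of these data known, and they make up 8 of 39625 IDs counted. All 8 passed the low-count filter and stood among 19519 tested genes. They are the oleosins ole1 (GRMZM2G337229) and ole17 (GRMZM2G480954), the globulins glb2 (GRMZM2G026703) and glb3 (GRMZM2G410134), the enzyme genes DGAT1-2 (GRMZM2G169089) and FatB (GRMZM5G829544), and the regulators WRI1a (GRMZM2G124524) and WRI1b (GRMZM2G174834). The reference names found under the last IDs are EREB85 and EREB20. Gene names came from a table of a later genome assembly than the one used for counting, so no coordinates are given.

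Kernels (Zea mays) were collected 14 days after pollination from field-grown plants. Of the 4 libraries, 2 came from wild type (WT) and 2 from zmknl1 mutant kernels, each from a different ear. The mutant is named after KNL1, a scaffold of the kinetochore, which joins chromosomes to the spindle. The allele, the genetic background and the number of kernels in a library are not given in the sources used here, and the targeted gene was not analysed here. The comparison asks how transcripts of the developing kernel differ between the genotypes.

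Maize kernels keep most of their oil in the embryo, above all in the scutellum. Triacylglycerol made in the endoplasmic reticulum is packed there into oil bodies, whose surface is coated by oleosins. Its fatty acids are built in plastids, and WRI1, a transcription factor of the AP2 family, is known in Arabidopsis to activate genes of late glycolysis and fatty acid synthesis. Globulins are the salt-soluble storage proteins of the embryo, laid down in the same cells as the oil.

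Gene counts came to between 16595289 and 22725030 a library. WT replicate 2 stood apart from the other libraries: reads assigned to no gene made up 47.79% of it against 35.77 to 37.49% elsewhere, and its 10 most abundant genes took 25.25% of gene counts against 6.74 to 7.77%. Levels are given in CPM, counts scaled to a common library size, here with sizes scaled by the trimmed mean of M-values (TMM), which corrects for a few very abundant genes. Because whole kernels were sampled, fewer embryo cells and less RNA per embryo cell cannot be told apart in any value given here.

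Of the 8 genes, 7 were lower in both zmknl1 libraries than in both WT libraries, and FatB was higher in both. Among all tested genes 20.0% lay lower in this way and 21.9% higher. The fitted log2 fold change of zmknl1 against WT was below -1 for 6 members, a range that held 12.8% of tested genes. Its median was -2.57 over the members, also with glb2 taken at its bound, against 0.01 over all tested genes. Given how the members were picked, these shares describe them and test nothing.

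The quasi-likelihood test of edgeR, adjusted over all genes by Benjamini-Hochberg, called 0 members at 0.05, as it called only 0.0205% of tested genes. At an unadjusted p under 0.05 edgeR listed 6 members, all lower, against 5.3% of tested genes lower in zmknl1. DESeq2, the tool the submitters used, called 5 members lower against 1.92% of tested genes, and 0 higher against 1.49%. The fold changes of all 5 exceeded the 1.5 (log2) that the submitters required, as 3.34% of tested genes did with a DESeq2 call. limma-voom called 0 members and 0.0% of tested genes, and listed 5 members, all lower, at an unadjusted p under 0.05, against 5.66% of tested genes. With 2 libraries against 2, an exact permutation test of a single gene cannot give a two-sided p below 0.333.

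**Figure D1:**
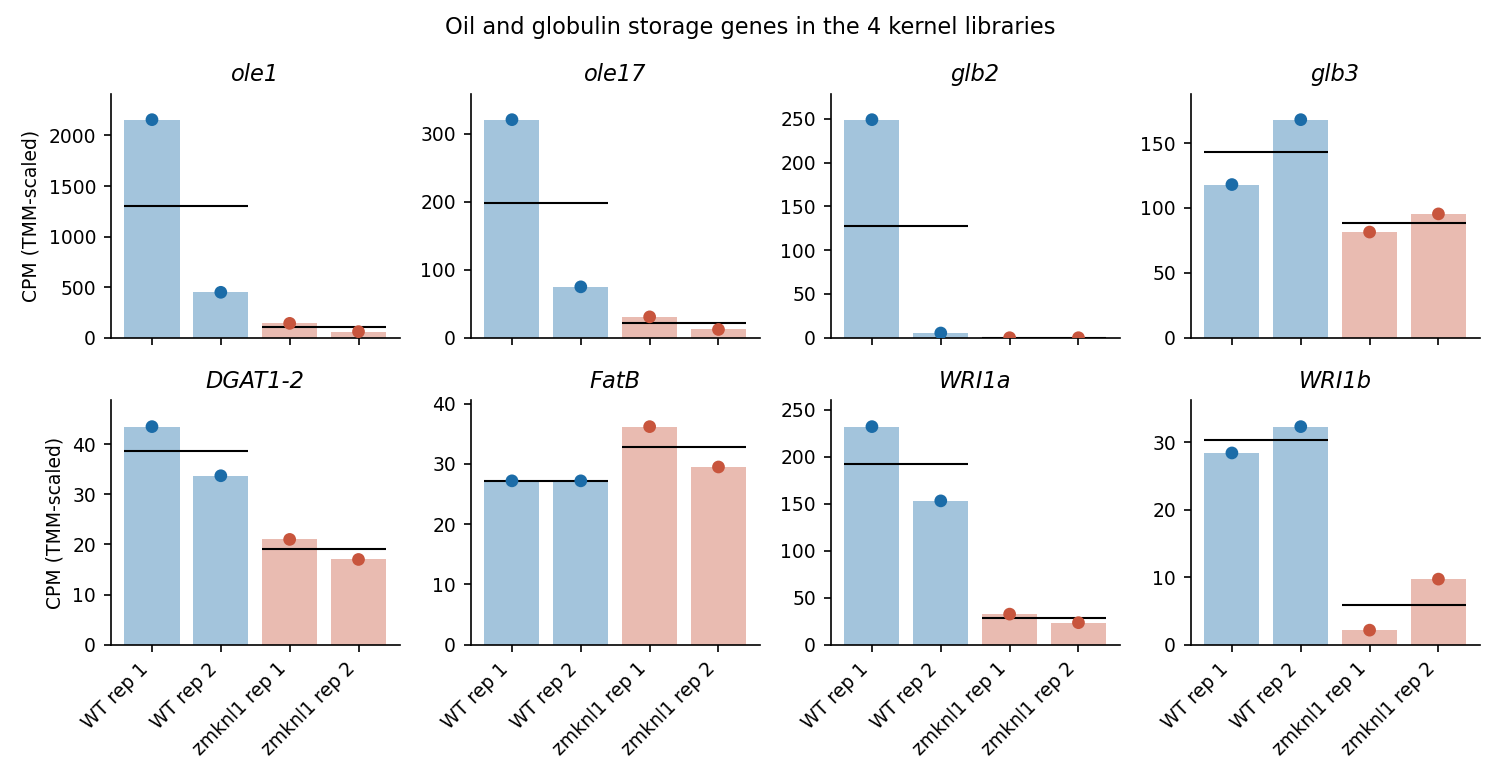
Level of each gene (TMM-scaled CPM, y axis from 0, scaled separately for each gene) in WT replicates 1 and 2 (blue) and zmknl1 replicates 1 and 2 (red); bars and points give the library, black lines the mean of each genotype. The oleosins and glb2 are highest in WT replicate 1, WRI1a and WRI1b are lower in both zmknl1 libraries, and FatB lies between 27.2 and 36.2 CPM throughout.

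The oleosin genes had some of the widest differences. Oleosins are small proteins with a hairpin that dips into the oil body and keeps neighbouring bodies from fusing. ole1 measured 2156 and 449 CPM in WT against 142 and 60.1 CPM in zmknl1. The genotype means were 1303 ± 1207 and 101 ± 58.1 CPM (SD, n = 2 each). The genotypes did not overlap, and the lowest WT value was 3.15 times the highest zmknl1 value, a gap that 0.799% of tested genes matched or passed on the log2(CPM + 1) scale. Yet the WT libraries themselves stood 4.81-fold apart in CPM, and 2.65% of tested genes differed as much on that log2 scale. Every share of genes with as wide a gap or replicate difference given below uses the same scale. The log2 fold change of ole1 was -3.69 ± 0.86 (SE), a 12.9-fold lower level (adjusted p = 0.267 by edgeR, 2.15e-05 by DESeq2). Without WT replicate 1 it was -2.16 and without WT replicate 2 -4.41, with edgeR adjusted p of 0.0929 and 0.00396. Over all 13 alternatives, other tools included, the adjusted p of ole1 ran from 7.02e-08 to 0.675.

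ole17 followed ole1 closely, at 321 and 74.9 CPM in WT against 30.7 and 12.1 CPM in zmknl1. No value of one genotype reached into the other, and the means were 198 ± 174 and 21.4 ± 13.1 CPM (SD, n = 2 each). The log2 fold change of ole17 was -3.21 ± 0.79 (SE; adjusted p = 0.277 by edgeR, 0.000449 by DESeq2). In raw counts, ole1 had 6.71 and 5.99 reads per ole17 read in WT against 4.64 and 4.98 in zmknl1. This ratio needs no library scaling. It moved far less than either gene did, while still being higher in both WT libraries than in both zmknl1 libraries. Both oleosin genes were lower in replicate 2 than in replicate 1 of each genotype, by 4.81- and 2.37-fold for ole1 and by 4.29- and 2.54-fold for ole17. The numbers of the replicates are not stated to mark anything the libraries share. A further gene listed as an oleosin, GRMZM2G333069, had 0 counts in all 4 libraries, which allows up to 0.12 to 0.256 CPM depending on the library (3 counts; counting error only).

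The globulin genes differed from each other. glb2, for a globulin of the embryo, had 5674 and 63 counts in WT, or 249 and 5.37 CPM, and 0 counts in each zmknl1 library. Pooled by genotype, WT was at least 2654-fold higher, with 3 counts taken over the zmknl1 group as the floor. The bound covers counting error only, not the spread between libraries. That bound rests on WT replicate 1, since without it the bound is 85.7-fold. The WT libraries differed 46.4-fold in glb2 in CPM, and 0.0564% of tested genes differed as much on the log2(CPM + 1) scale. That scale shrinks differences between low values, so genes at low levels with a larger CPM ratio can fall outside this share. The adjusted p of glb2 was 0.229 by edgeR, 0.0115 by DESeq2 and 0.518 by limma-voom, and from 3.26e-44 to 0.518 over the 13 alternatives.

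glb3, listed in the reference as globulin3, measured 118 and 168 CPM in WT against 81.4 and 95.4 CPM in zmknl1. The means were 143 ± 35.0 and 88.4 ± 9.93 CPM (SD, n = 2 each). The genotypes did not overlap, but 10.8% of tested genes had as wide a gap in this direction. Its log2 fold change was -0.69 ± 0.38 (SE; adjusted p = 0.627 by edgeR, 0.613 by DESeq2). glb3 was 1.42-fold higher in WT replicate 2 than in WT replicate 1 on TMM-scaled sizes, but on plain sizes the order turned, at 130 CPM in replicate 1 and 119 CPM in replicate 2. In raw counts ole1 had 18.2 and 2.68 reads per glb3 read in WT, and 1.75 and 0.63 in zmknl1.

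The enzyme genes of oil synthesis lay closer to WT than the oleosins did, and neither tool called them. DGAT1-2 encodes a diacylglycerol acyltransferase, which adds the last fatty acid to make triacylglycerol. It measured 43.5 and 33.7 CPM in WT against 21.0 and 17.0 CPM in zmknl1, with no overlap. Its log2 fold change was -1.02 ± 0.41 (SE), a 2.03-fold lower level (edgeR unadjusted p = 0.0392; adjusted p = 0.445 by edgeR, 0.37 by DESeq2). Such a gap was matched or passed by 5.28% of tested genes. On plain library sizes the genotypes overlapped, with 48.0 and 23.8 CPM in WT against 24.3 and 18.7 CPM in zmknl1.

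FatB, a plastid thioesterase that frees mainly saturated fatty acids from acyl carrier protein, had 27.2 CPM in each WT library and 36.2 and 29.5 CPM in the zmknl1 libraries. The equal WT values depend on the scaling, since plain sizes gave 30.0 and 19.2 CPM. Both zmknl1 values lay above WT, by 1.09-fold at the least, and 17.7% of tested genes had as wide a gap in that direction. The log2 fold change was 0.27 ± 0.39 (SE), smaller than its error (adjusted p = 0.886 by edgeR, 0.949 by DESeq2). FatB and glb3 were the members nearest to the centre of all tested genes, as the histogram of fold changes shows.

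The regulators were lower in zmknl1, and WRI1a had the lowest edgeR p of all members. WRI1a measured 232 and 153 CPM in WT against 32.5 and 23.4 CPM in zmknl1. The means were 193 ± 55.9 and 28.0 ± 6.43 CPM (SD, n = 2 each). The lowest WT value was 4.71 times the highest zmknl1 value, a gap that only 0.338% of tested genes reached. Replicates stood 1.52-fold apart in WT and 1.39-fold in zmknl1. The log2 fold change was -2.78 ± 0.44 (SE), a 6.89-fold lower level. Its adjusted p was 0.147 by edgeR, 1.09e-06 by DESeq2 and 0.124 by limma-voom, and from 1.05e-06 to 0.476 over the 13 alternatives. With 1 library left out the log2 fold change stayed between -3.04 and -2.46, and edgeR's adjusted p was 0.0224 and 0.00687 with the first or second WT library left out and 0.408 and 0.476 with the first or second zmknl1 library left out. Against FatB in the same library, WRI1a had 8.53 and 5.62 reads per FatB read in WT and 0.897 and 0.793 in zmknl1.

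WRI1b measured 28.4 and 32.3 CPM in WT against 2.15 and 9.71 CPM in zmknl1. Here the WT libraries lay close together and the zmknl1 libraries differed 4.52-fold in CPM. On the log2(CPM + 1) scale, 1.88% of tested genes differed as much. The lower zmknl1 value rests on 49 reads. Its log2 fold change was -2.35 ± 0.72 (SE; adjusted p = 0.337 by edgeR, 0.0352 by DESeq2). It was -1.64 without zmknl1 replicate 1 and -3.82 without zmknl1 replicate 2. The pair did not keep a fixed ratio: WRI1a had 8.18, 4.73, 15.1 and 2.41 reads per WRI1b read in turn over the WT and then the zmknl1 libraries. Oleosin and WRI1a levels differed in spread as well, with 0.108 and 0.341 WRI1a reads per ole1 read in WT and 0.228 and 0.389 in zmknl1, which overlap.

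**Figure D2:**
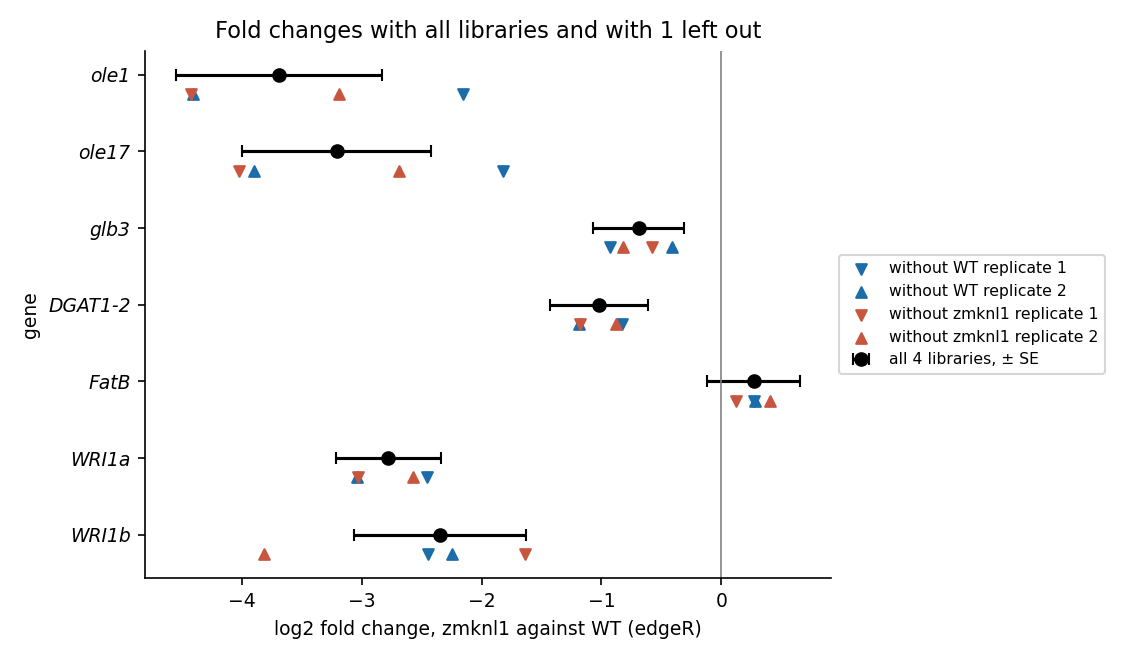
edgeR log2 fold change of zmknl1 against WT (x axis) for 7 members (y axis), with all 4 libraries (black points, bars ± SE) and with 1 library left out (triangles); glb2 is not drawn because it has 0 counts in zmknl1. The oleosins move most without WT replicate 1, to -2.16 and -1.82, WRI1b moves most without a zmknl1 library, and WRI1a stays between -3.04 and -2.46.

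**Figure D3:**
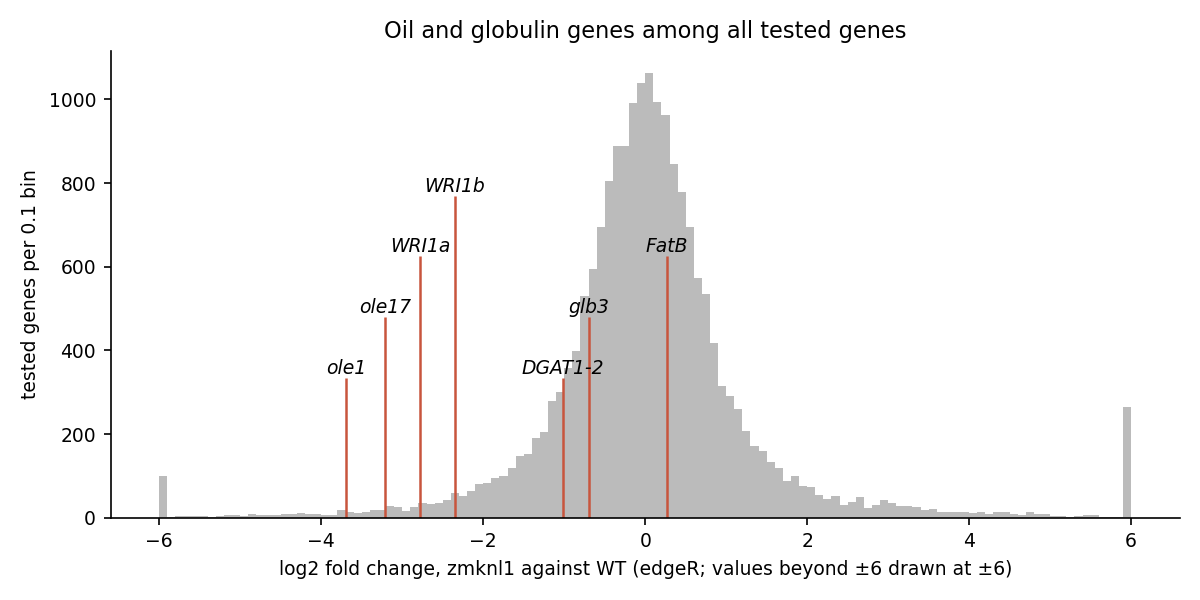
Number of tested genes (y axis) per bin of 0.1 of edgeR log2 fold change (x axis; values beyond 6 in size drawn at the edge), with 7 members marked by red lines whose heights carry no value. ole1, ole17, WRI1a and WRI1b lie in the left tail, while glb3, DGAT1-2 and FatB lie within the bulk; glb2 is left out because it has 0 counts in zmknl1.

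WRI1a and WRI1b were set beside the other genes that the reference names EREB, the family of AP2-domain factors to which they belong. Of 32 other EREB genes, 14 were tested; their median log2 fold change was 0.44, and 4 were lower and 5 higher in both zmknl1 libraries. edgeR called 0 of them, with 1 lower and 1 higher at an unadjusted p under 0.05, and DESeq2 called 0. In order of fold change from the lowest, WRI1a came in place 1 and WRI1b in place 3 of 16 tested EREB genes. The pair with the highest mean level among the others was EREB160 (GRMZM2G171179) at 100 and 149 CPM in WT against 67.4 and 85.8 CPM in zmknl1, and EREB14 (GRMZM2G018398) at 46.5 and 104 against 132 and 111 CPM. EREB160 was lower and EREB14 higher in both zmknl1 libraries.

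The listed desaturase genes were mixed. Of 5 listed and tested, 2 were lower in both zmknl1 libraries, 1 was higher and 2 overlapped, with a median log2 fold change of -0.52. edgeR called 0, with 1 lower and 1 higher at an unadjusted p under 0.05, and DESeq2 called 1. That gene was fad2 (GRMZM2G064701), for an oleate desaturase of the endoplasmic reticulum, at 179 and 69.8 CPM in WT against 20.3 and 28.2 CPM in zmknl1. Its log2 fold change was -2.36 ± 0.54 (SE; adjusted p = 0.261 by edgeR, 0.00224 by DESeq2). The other ID listed as FAD2, GRMZM2G056252, was called by neither tool and named after its values were seen. It measured 313 and 316 CPM in WT against 153 and 201 CPM in zmknl1. These 2 IDs were the ones lower in both zmknl1 libraries. Of the rest, also named after their values were seen, fad8 was higher and fad6 and fad7 overlapped. ACC1 (GRMZM5G858094), an acetyl-CoA carboxylase gene and the single other fatty acid synthesis gene with a clear name, overlapped at 1100 and 248 CPM in WT against 484 and 315 CPM in zmknl1.

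Genes listed for glycolysis and for fatty acid breakdown gave no calls, as did most tested genes (DESeq2 called 1.92% lower and 1.49% higher). The list of glycolysis and pyruvate supply had 3 tested genes, and whether WRI1 acts on them was not tested. In both zmknl1 libraries 2 were lower and 1 higher, with a median log2 fold change of -0.21. There were 0 calls by edgeR or DESeq2, and 0 at an unadjusted p under 0.05 in edgeR. Its most abundant genes were enolase2 (GRMZM2G048371) at 1256 and 1411 CPM in WT against 1218 and 1088 CPM in zmknl1, and the pyruvate dehydrogenase gene pdh2 (GRMZM2G043198) at 105 and 148 against 159 and 155 CPM. The 4 genes listed under fatty acid breakdown and the glyoxylate cycle all overlapped. Here too there were 0 calls by edgeR or DESeq2 and 0 at an unadjusted p under 0.05 in edgeR. The 2 most abundant of these 4 were both listed as LC-FACS, the name of long-chain acyl-CoA synthetases. That name alone does not place a gene in fatty acid breakdown. They had 100 and 39.3 against 54.9 and 42.8 CPM (GRMZM5G840955) and 68.6 and 12.2 against 37.1 and 17.0 CPM (GRMZM2G339336).

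Other embryo storage and late embryogenesis genes did not move together. Of 6 listed, 4 were tested, and the sign of their median log2 fold change depended on 1 library and on the tool. The median was 0.62 in edgeR with all libraries, -1.8 without zmknl1 replicate 1 and -0.11 in limma-voom with all libraries. Over these 4, 3 overlapped and 1 was higher in both zmknl1 libraries. edgeR and DESeq2 called 0, and edgeR listed 1 lower at an unadjusted p under 0.05. glb1 (GRMZM2G067919), the main embryo globulin, measured 112 and 16.0 CPM in WT against 17.7 and 4.87 CPM in zmknl1, so the genotypes overlapped. Its log2 fold change was -2.51 ± 0.97 (SE; adjusted p = 0.432 by edgeR, 0.0659 by DESeq2). dehydrin7 (GRMZM2G002786) measured 12.7 and 29.6 CPM in WT against 19.0 and 22.7 CPM in zmknl1. The dehydrin gene dhn1 (GRMZM2G079440, also rab17), named after its values were seen, had 137 and 1 counts in WT and 581 and 1 counts in zmknl1. Like the oleosins, glb1 and dhn1 were lower in replicate 2 than in replicate 1 of each genotype. WRI1a and DGAT1-2 shared this order, while glb3, WRI1b and dehydrin7 were higher in replicate 2 of each genotype in TMM-scaled CPM. The share of all tested genes with either order was not computed.

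Among seed maturation regulators, vp1 (GRMZM2G133398), the maize counterpart of ABI3, was the single tested gene of 3 listed. It measured 28.6 and 20.5 CPM in WT against 7.45 and 4.15 CPM in zmknl1, a difference of -2.08 ± 0.53 (log2, SE; adjusted p = 0.277 by edgeR, 0.0213 by DESeq2). vp1 is active in the aleurone as well as in the embryo. lec1 (GRMZM2G011789), a regulator of early embryo growth named after its values were seen, had 0 counts in every library, and vp14 had at most 6.

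**Figure D4:**
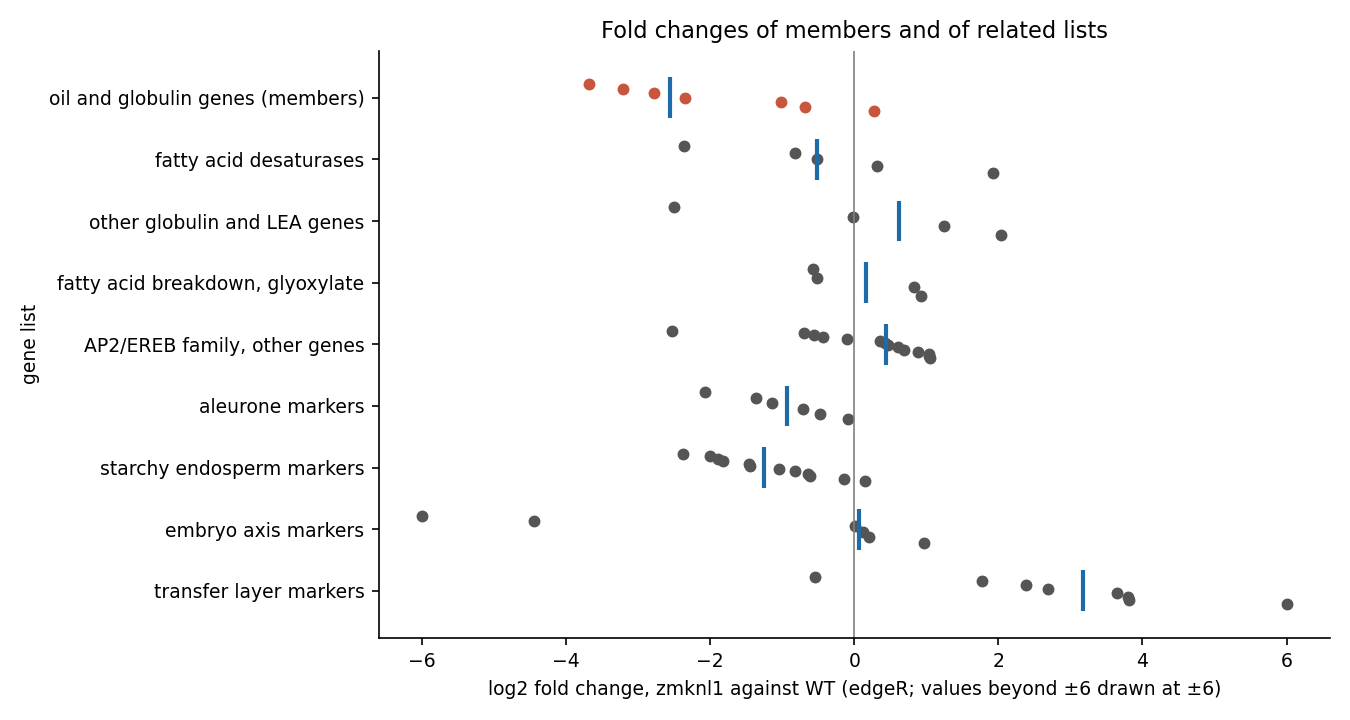
edgeR log2 fold change of zmknl1 against WT (x axis; values beyond 6 in size drawn at the edge) for each tested gene of the oil and globulin set (red) and of 8 related lists (grey; y axis), with the median of each list as a blue bar; the vertical spread within a list carries no value. glb2 counts in the median of the set, -2.57, but is not drawn as a point. The desaturases and the other globulin and late embryogenesis (LEA) genes spread to both sides of 0.

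Markers of the tissues in a whole kernel also differed between the genotypes, and their part in the values above was not tested. Of 11 listed markers of the embryo axis, 6 were tested, 2 of them lower in both zmknl1 libraries and 4 overlapping, and the median was 0.07. DESeq2 called 1 of them lower and edgeR 0, with 2 lower at an unadjusted p under 0.05 in edgeR. Their summed level was 42.0 to 53.8 CPM in WT and 45.3 to 52.6 CPM in zmknl1. The markers knox3, wox5B and wus1 had 0 counts in every library. The meristem gene kn1 (GRMZM2G017087) had 82 and 38 counts in WT and 7 and 0 in zmknl1. It was named after its values were seen, and its adjusted p was 0.0672 by DESeq2 and 0.4 by edgeR. The 4 overlapping markers, also named after their values were seen, had log2 fold changes of 0.97 (wox2A), 0.2 (knox7), 0.12 (lg3) and 0.01 (knox6).

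Of 13 listed starchy endosperm markers 12 were tested, 7 were lower in both zmknl1 libraries and 5 overlapped, with a median of -1.25 that became -0.47 without WT replicate 2. Their summed level was 31499 and 80161 CPM in WT against 15239 and 21388 CPM in zmknl1. DESeq2 called 4 of them lower and edgeR 0, with 4 lower at an unadjusted p under 0.05. The genes DESeq2 called were wx1 (GRMZM2G024993), for granule-bound starch synthase, at 2114 and 3342 against 486 and 563 CPM, sh1 (GRMZM2G089713), for sucrose synthase, at 12648 and 30117 against 3233 and 7378 CPM, the zein gene bz15 (GRMZM2G086294) at 4011 and 7648 against 1083 and 2070 CPM, and bt2 (GRMZM2G068506), for a subunit of ADP-glucose pyrophosphorylase, at 3702 and 5315 against 1263 and 2027 CPM. Aleurone markers, 6 tested of 6, summed to 456 and 393 CPM in WT against 281 and 276 CPM in zmknl1, with 4 lower and 2 overlapping, and DESeq2 called vp1 alone and edgeR 0, with 2 lower at an unadjusted p under 0.05. Transfer layer markers went the other way: 8 of 10 were tested, 7 were higher in both zmknl1 libraries, and they summed to 40.2 and 54.5 CPM in WT against 177 and 142 CPM in zmknl1. Their median was 3.17, and 2.16 to 4.64 with 1 library left out. DESeq2 called 5 higher and edgeR 0, with 6 higher at an unadjusted p under 0.05, and BETL1 had 0 counts throughout. The called genes of at least 5 CPM were bap2 (GRMZM2G152655) at 15.8 and 21.3 against 67.8 and 58.5 CPM, betl10 (GRMZM2G091445) at 1.05 and 13.3 against 49.7 and 41.5 CPM, and betl4 (GRMZM2G073290) at 1.14 and 1.11 against 24.0 and 7.43 CPM. The 4 markers of the embryo-surrounding region, 3 tested and all overlapping, summed to 0.264 and 14.2 CPM in WT against 3.9 and 7.67 CPM in zmknl1.

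The profiles most like those of ole1 and DGAT1-2 over the 4 libraries were sought by the root mean square distance between log2(CPM + 1) values centred on each gene's mean, among 13192 other genes with a mean of at least 5 CPM. Only 14 genes lay within 0.5 of ole1. The nearest with a name was ole17, at 0.235, with 1 gene closer. Then came me (GRMZM2G118770, also me4) at 0.293, alt (GRMZM2G088028) at 0.305, the cytochrome P450 gene BX5 (GRMZM2G063756) of benzoxazinoid synthesis at 0.432, and vpe1 (GRMZM2G463291), a vacuolar processing enzyme gene, at 0.507. This distance is not scaled to the size of a gene's differences, so a gene that differs little between libraries has many others nearby. DGAT1-2, with smaller differences than ole1, had 3966 genes within 0.5. Its nearest named genes were KEA2 (GRMZM2G093643) at 0.0403, pck2 (GRMZM5G870932) at 0.09, pdh1 (GRMZM2G145715) at 0.0942, AUX6 (GRMZM2G035465) at 0.0946 and mbd111 (GRMZM2G025095) at 0.0992. Distances over 4 libraries are descriptions and carry no test.

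Among the members themselves, ole1 and ole17 were the closest pair by this distance. WRI1a lay 0.73 from ole1 and 0.611 from ole17, nearer to either than to WRI1b at 0.846. The greatest distance, 3.36, separated glb2 from FatB. glb3 and DGAT1-2 lay 0.387 apart, and FatB lay 0.529 from glb3.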

How the data were processed

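Total RNA of the kernels was sequenced on an Illumina instrument, per the labels' protocols. Reads were trimmed (Trimmomatic 0.36), mapped to B73 RefGen_v3 (HISAT2 2.0.1) and counted by gene (HTSeq) by the authors, per the submitters' processing notes. The deposited values are raw counts, not normalized, for 39625 IDs in each of 4 libraries. The strand setting is not given in the sources used here, so the reads of overlapping or antisense genes may be mixed. Reads with several alignments were not counted in genes, which makes values of near-identical copies uncertain. The 5 lines of reads assigned to no gene (35.77 to 47.79% of each library) entered neither library sizes nor tests.

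Libraries were grouped by title. In R 4.3.3, the filterByExpr defaults and TMM factors (0.707 to 1.16) of edgeR 4.0.16 were used with its quasi-likelihood test, without covariates, on all 4 libraries, with Benjamini-Hochberg adjustment over 19519 genes. The standard error of a fold change is its size divided by the root of F. CPM were computed on TMM-scaled sizes. Other fits used DESeq2 1.42.0 at its default settings on the same genes, limma 3.58.1 with voom, other scalings and filters, a block for replicate number, and each library left out in turn. DESeq2 with its filtering set for 0.05 was chosen after seeing the data. The edgeR, DESeq2 and limma-voom fits were tested on simulated counts. Replicate libraries were no copies of each other: their chi-square per degree of freedom was 344 in WT and 70.0 in zmknl1.

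Of the IDs, 19059 were found in a reference table (assembly Zm-B73-REFERENCE-NAM-5.0) and 2819 had a name. Lists were matched by name. After that table was seen, 20 entries with a name of another or unclear meaning were dropped, which emptied the list of triacylglycerol assembly, and the EREB list and 5 entries were added. The members and lists were chosen with earlier results of these data known. Named from a list were its genes called by edgeR or DESeq2 with a mean of at least 5 CPM, up to 4 by size of change, or else the 2 most abundant, and for ole1 and DGAT1-2 the 5 nearest named profiles; others are marked in the text, and markers of the embryo-surrounding region are given as a sum. A gene of the embryo axis list is not reported here by name. No sequences are shown.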

Additional observations from a re-analysis of the deposited data

How the results depend on the processing

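The results were recomputed under 13 alternatives, of which DESeq2 filtering at 0.05 was chosen after seeing the data. All 104 recomputed log2 fold changes of the members kept their sign, and 26 passed an adjusted p of 0.05. Counts of calls depended on the method far more. The edgeR count of 4 genes, all past the log2 fold change limit of 1.5, became 0 with plain library sizes, 0 with TMM factors taken without the 10 most abundant genes and 0 in limma-voom. It became 666 in DESeq2 (652 past the limit), 679 in DESeq2 filtering at 0.05 (663 past the limit) and 715 without a low-count filter, all past the limit. Leaving out 1 library gave 19 to 805 genes, all past the limit. Members called numbered 0 in edgeR, 5 in DESeq2 under either filtering and 5 without the low-count filter. With 1 library left out they numbered 0 to 4, with 2 without WT replicate 1 and 4 without WT replicate 2. The members' median log2 fold change then ran from -2.65 to -1.99. With the replicate number as a block, edgeR called 642 genes, 576 past the limit, and 5 members. Deviations of same-numbered libraries correlated at 0.278 across genes, but nothing in the labels ties a number to a shared source. Plain library sizes moved the median of all genes to 0.34; relative to it DGAT1-2 stood at -1.08, glb3 at -0.66 and FatB at 0.26. Members lower in both zmknl1 libraries numbered 7 with any library left out and 6 on plain library sizes. Of 130 medians recomputed for 10 lists, 123 moved by less than the median standard error of their genes. The fit without the filter tested more genes; other causes of these shifts were not tested.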

Other observations

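WRI1a had 101 genes within 0.5 of its centred log2(CPM + 1) profile over the 4 libraries. The nearest with a name, chosen after their values were seen, was PPCK1 (GRMZM2G178074), at a distance of 0.124, with 21.0 and 16.6 CPM in WT against 2.06 and 1.44 CPM in zmknl1. It was followed by mips2 (GRMZM2G004528), at 0.147, with 987 and 559 CPM in WT against 106 and 85.8 CPM in zmknl1, and by lpa3 (GRMZM2G361593), at 0.194, with 38.2 and 28.1 against 4.64 and 4.71 CPM. mips2 bears the name of myo-inositol phosphate synthases, which open the route to phytate, and lpa3 that of a low phytic acid locus. The named genes nearest to WRI1b, also chosen after their values were seen, were different ones. Among them sdh1 (GRMZM2G175423) came first, at 0.317, but 8 genes lay closer. Its CPM values were 336 and 442 in WT and 64.6 and 154 in zmknl1. AUX34 (GRMZM2G163848) followed at 0.453, then bz15 and sh1 from the starchy endosperm list, both at 0.481, and hyp1 (GRMZM2G304378) at 0.513.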
